A study of Saccharomyces cerevisiae with 16 samples.

Results

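Ethanol-fixed microcolonies of budding yeast were compared with the same strain growing without particles at low density. The comparison took 8 of the 16 libraries of the series, chosen by their labels: 3 of unsorted fixed particles, 3 of big fixed colonies and 2 of batch culture at an Abs600 of 0.5 (YPD05). All came from the haploid strain BY4741, of mating type a, whose genotype carries lesions in his3, leu2, ura3 and met15. The fixed libraries came from single cells enclosed in alginate that grew into clonal colonies in YPD, a rich medium with 2% glucose, at 30 °C. Unsorted particles were taken whole after ethanol fixation, and big colonies were picked from fixed particles by size in a large-particle flow cytometer. YPD05 cells had neither alginate nor a stated ethanol step, and the labels give no age or cell number for the colonies. Encapsulation, fixation and growth as a colony therefore separate the groups together and cannot be told apart. The unsorted and big libraries were pooled as 1 group of fixed microcolonies, and the 4 small-colony libraries were left out. The other 4 libraries, 2 of unfixed particles and 2 of batch culture at an Abs600 of 2 (YPD2), entered the fit for the estimate of spread.

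Yeast growing on abundant glucose ferments it and keeps genes of respiration and of other carbon sources repressed. Cells in a colony draw oxygen and nutrients through their neighbours, and yeast has known gene programmes for low oxygen, for low phosphate and for a stressed cell wall. The libraries were made with 3′T-fill, which reads transcripts where the poly(A) tail begins, so that each tag stands for a transcript end and transcript length does not enter a count.

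Gene levels are given as CPM, the tags of a gene relative to all gene tags of the library after TMM scaling, a correction that assumes most genes do not differ. The fixed libraries held between 1506960 tags, in unsorted replicate 2, and 4750543 tags, in unsorted replicate 1, against 2312361 and 1665301 in YPD05. Where a library held few tags of a gene, counting error adds to the spread between libraries: ACO1 had 1 tag in big replicate 2, CYC7 2 to 10 tags in each fixed library, DAN1 3 tags in big replicate 1, and MLS1 3 tags in each YPD05 library. The fixed libraries did not form a compact group. Correlations of log2 CPM among them were 0.879 to 0.955 over 15 pairs, against 0.895 to 0.940 over the 12 pairs of a fixed and a YPD05 library and 0.944 between the 2 YPD05 libraries. On the first principal component, with 28.7% of the variance, unsorted replicate 2 lay at 27.0 and big replicate 1 at 27.5, beside YPD05 at 26.4 and 22.9, and the other 4 fixed libraries lay between -36.1 and -17.9. Unsorted replicate 2 was also the shallowest of the 8. The a-cell genes STE2, STE6, MFA1, MFA2 and BAR1 were present in all 8 libraries, and the 2 tested genes of alpha cells, the other mating type, summed to 0.265 to 11.4 CPM in fixed libraries and 10.99 and 11.02 CPM in YPD05. The 34 tested genes of meiosis and sporulation summed to 162 to 249 CPM in fixed libraries, against 163 and 234 CPM in YPD05.

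**Figure D1:**
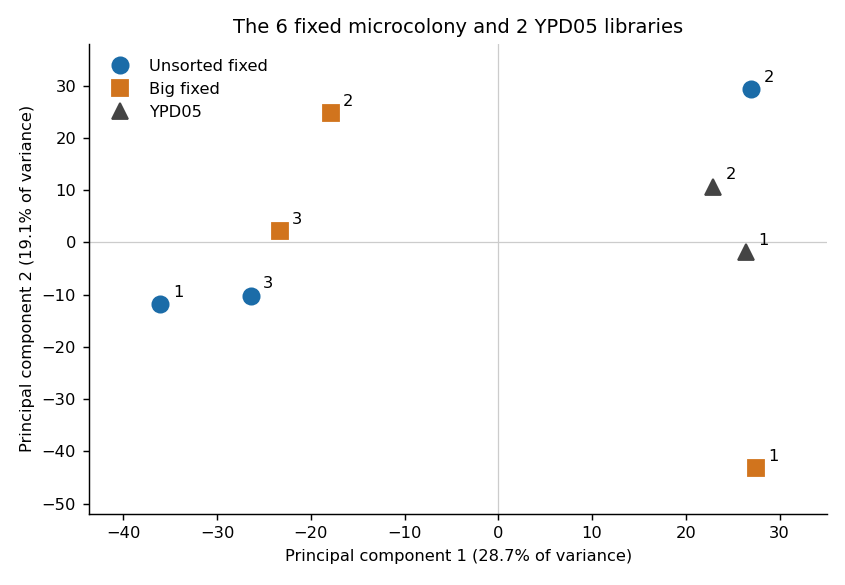
The 8 libraries on the first and second principal components of log2 CPM; each symbol is 1 library and its number is the replicate. Unsorted fixed replicate 2 and big fixed replicate 1 sit on the side of the 2 YPD05 libraries on the first component, and the other 4 fixed libraries on the opposite side.

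Fixed microcolonies and low-density cells differed past the threshold at 2 of 5449 tested genes, which is 0.0367%, and both were lower in microcolonies. These were COX5B, a subunit of cytochrome c oxidase, and VTC1, a subunit of the polyphosphate polymerase. No gene was called higher. The test was edgeR's quasi-likelihood test in a fit of 12 libraries, with p-values adjusted by the Benjamini-Hochberg method and called under 0.05. At an unadjusted p under 0.05 there were 444 genes, 232 higher and 212 lower, or 8.15% of those tested. DESeq2 on the same libraries called 36 genes, 25 higher and 11 lower, or 0.752% of the 4789 genes it gave an adjusted p, and both COX5B and VTC1 were among them. Voom with a quality weight per library called 196 genes, or 3.6%. All 36 genes of DESeq2 had the same direction and an unadjusted p under 0.05 in edgeR's test. The width of the edgeR intervals says what a missed threshold allows: the median 95% interval reached 0.997 to either side of the log2 fold change. It lay wholly within -1 to 1 for 984 genes and within -2 to 2 for 3910 genes. The intervals of the other genes reached beyond that range.

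**Figure D2:**
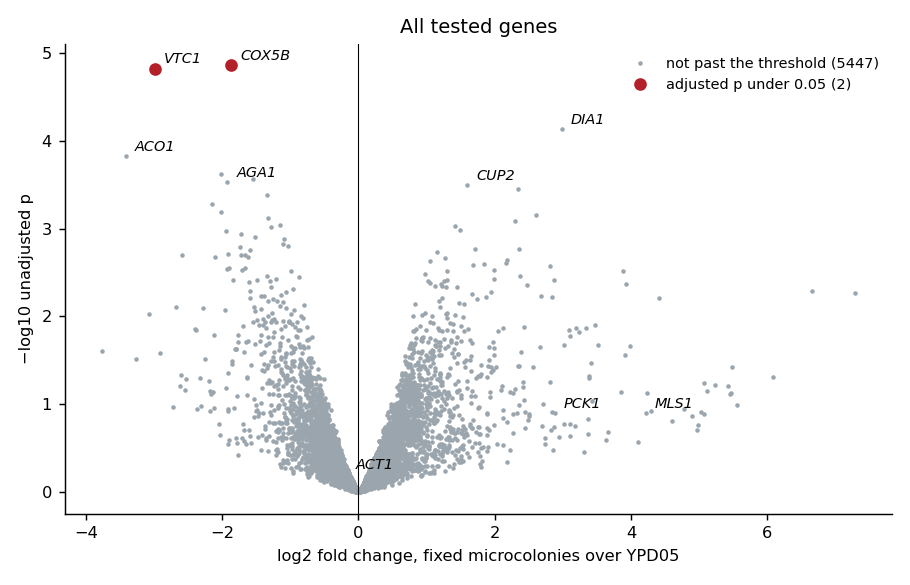
Log2 fold change of fixed microcolonies over YPD05 (horizontal axis) against −log10 of the unadjusted p of edgeR's quasi-likelihood test (vertical axis), 1 point per gene. COX5B and VTC1, in red, are the 2 genes past the threshold; PCK1 and MLS1 show large fold changes with large p-values.

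COX5B (YIL111W, chrIX:155222-155765, plus strand, R64 build) encodes the form of cytochrome c oxidase subunit 5 that yeast uses when oxygen is scarce. Its level in fixed libraries had a lowest value of 35.2, a median of 49.2 and a highest value of 73.9 CPM, against 216 and 163 CPM in YPD05. The highest fixed library stayed below the lower YPD05 library, so the groups did not overlap. The means were 51.8 ± 17.4 CPM (SD, n = 6) and 189 ± 37.0 CPM (SD, n = 2), a log2 fold change of -1.87 (SE 0.31, 95% interval -2.52 to -1.22, edgeR adjusted p = 0.0415). Fixed microcolonies also lay below the other cultures in the fit, which had 483 and 622 CPM in YPD2 and 875 and 808 CPM in unfixed particles. Over the 8 libraries together the most used COX5B transcript end was at position 155799 of chromosome IX, 34 nt after the ORF. Within 10 nt of it lay 67.8% of COX5B tags in fixed microcolonies and 59.9% in YPD05. Across 23 other settings the log2 fold change stayed between -2.09 and -1.65, while the adjusted p ran between 0.000272 and 1, and 15 of the 23 did not pass the threshold. In a bulk sample fewer cells that express a gene and less RNA per cell cannot be told apart.

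No other oxygen gene passed the threshold with COX5B, its partner isoform included. COX5A, the form used in air, had a lowest value of 32.4, a median of 44.5 and a highest value of 69.2 CPM in fixed libraries, against 42.6 and 30.3 CPM in YPD05. Those ranges overlapped, and the log2 fold change was 0.35 (95% interval -0.53 to 1.22, edgeR adjusted p = 0.856). CYC7, the hypoxic form of cytochrome c, was scarce in every library, at 0.388 to 6.83 CPM in fixed libraries and 4.58 and 4.13 CPM in YPD05. Every gene named here other than COX5B and VTC1 missed the threshold in the edgeR fit of 12 libraries. From the list of 33 tested genes of hypoxia, heme and the anaerobic cell wall, COX5B was the single call, and the list median was 0.38 against 0.05 over all tested genes. Of the 33, 21 had a log2 fold change above 0 and 12 below. Without overlap, 4 members were higher in fixed libraries and 2 lower, where 5.54% of all tested genes were higher and 5.63% lower. Such counts depend on the libraries. Over all tested genes they were 302 higher and 307 lower. They were 507 and 525 without big replicate 1 and 494 and 460 without unsorted replicate 2. They were 361 and 373 without big replicate 2, 647 and 625 without YPD05 replicate 1, and 893 and 895 without YPD05 replicate 2. List counts given below with a library left out belong beside the all-gene counts of that setting, not beside 5.54% and 5.63%. In the oxygen list 7 members were higher without big replicate 1, and 4 were lower without unsorted replicate 2 or without YPD05 replicate 1. TIR1, a wall mannoprotein made under anaerobic growth, had a lowest value of 30.7, a median of 154 and a highest value of 367 CPM in fixed libraries, against 26.6 and 17.2 CPM in YPD05 (log2 2.84, SE 0.88, edgeR adjusted p = 0.376). The 2 fixed libraries nearest to YPD05 in TIR1 were unsorted replicate 2 and big replicate 1. DAN1, another anaerobic mannoprotein, had tags in all 6 fixed libraries, at 1.01 to 22.5 CPM, and 0 in both YPD05 libraries. Set against a limit of 3 tags over the 2 YPD05 libraries together, its mean was at least 8.16-fold higher in fixed microcolonies, with an edgeR adjusted p of 0.369. NCE103, the carbonic anhydrase, stood at 70.0 to 457 CPM in fixed libraries, with a median of 251 CPM, and at 59.1 and 47.5 CPM in YPD05 (log2 2.19, SE 0.60, edgeR adjusted p = 0.324). DESeq2 called TIR1 and NCE103, with adjusted p = 0.00883 and 0.0122. TIR1, DAN1 and NCE103 were picked from the higher side.

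VTC1 (YER072W, chrV:302806-303195, plus strand, R64 build) encodes a subunit of the vacuolar transporter chaperone, which makes polyphosphate, the phosphate store of the vacuole. Its level in fixed libraries had a lowest value of 74.6, a median of 96.7 and a highest value of 384 CPM, against 1549 and 670.3 CPM in YPD05. The groups did not overlap, although unsorted replicate 2, at 384 CPM, stood well above the other fixed libraries and the YPD05 libraries differed from each other. The means were 142 ± 120 CPM (SD, n = 6) and 1110 ± 621 CPM (SD, n = 2), a log2 fold change of -2.98 (SE 0.49, 95% interval -4.02 to -1.95, edgeR adjusted p = 0.0415). YPD2 had 318 and 362 CPM and unfixed particles 223 and 191 CPM, so YPD05 was the highest of the groups in the fit. Most tags of both groups, 81.3% in fixed microcolonies and 88.0% in YPD05, ended within 10 nt of position 303341 of chromosome V, 146 nt after the ORF. Across 23 other settings the log2 fold change was -3.58 to -2.25 and the adjusted p 1.43e-05 to 1, and 11 of the 23 did not pass the threshold. The smallest of these p-values came without unsorted replicate 2.

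Genes of the phosphate programme, which Pho4 switches on when phosphate is short, had a log2 fold change below 0 at 25 of 28 tested list members, against 46.5% of all tested genes. The list median was -0.54 against 0.05, and VTC1 was its single call. Without overlap, 8 members were lower in fixed libraries and 1 was higher, against 5.63% and 5.54% of all tested genes. Pho4 binds the hexamer CACGTG, which reads the same on both strands. It occurred in the 500 bases before the ORF of 6 of those 8 lower genes, of 64.3% of the 28 list members and of 6.33% of all tested genes; the list was drawn up from known targets of Pho4, so its share is a description. Not all 8 lower genes carry it, and most of the 28 members do, so it does not set the lower genes apart. A stretch of 30 bases around 1 copy is shown for each of the 6, to give the hexamer in its surroundings. Stretches are from the R64 reference genome, 5′ to 3′ along the strand of the gene, with 1 hexamer in capitals. The VTC4 stretch ends in a further copy, left in lower case.
VTC1, chrV:302637-302666, plus strand: aatagatattagCACGTGtctcggagagaa
VTC4, chrX:413507-413536, minus strand: attattcatccgCACGTGgctgcacacgtg
PHO84, chrXIII:26219-26248, minus strand: atttaatagttcCACGTGgacgtgttattt
PHO5, chrII:431187-431216, minus strand: ccttggcactcaCACGTGggactagcacag
SPL2, chrVIII:375230-375259, minus strand: aaatgatgtacgCACGTGggcgaaagttca
PHM6, chrIV:1022583-1022612, minus strand: gagcttcgctgaCACGTGggaggtgggata

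The transporter PHO84, the high-affinity phosphate carrier of the plasma membrane, had a lowest value of 1.16, a median of 28.04 and a highest value of 207 CPM in fixed libraries, against 362 and 251 CPM in YPD05. Its fixed libraries spanned a far wider range than the YPD05 pair, and the log2 fold change of -2.53 (SE 1.16) had an edgeR adjusted p of 0.605. PHO90, a low-affinity carrier, went the other way, with 265 to 510.2 CPM in fixed libraries and 182 and 261 CPM in YPD05 (log2 0.73, SE 0.31, edgeR adjusted p = 0.544). SPL2, a regulator that restrains low-affinity phosphate uptake, stood at 8.92 to 219 CPM, with a median of 31.6 CPM, against 369 and 389 CPM in YPD05. Its log2 fold change of -2.67 (SE 0.84, edgeR adjusted p = 0.409) became -3.68 without unsorted replicate 2 and then passed the threshold, at an adjusted p of 0.00854. Leaving out the lowest or highest fixed library of a gene narrows its spread by construction. Calls that appear only then, here and for genes below, are descriptions. PHO5, the secreted acid phosphatase, had a lowest value of 6.12, a median of 31.7 and a highest value of 118 CPM in fixed libraries, against 202 and 286 CPM in YPD05 (log2 -2.28, SE 0.73, edgeR adjusted p = 0.414). Its neighbour PHO3 is a close copy, so tags of either can be misassigned.

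The other VTC subunits were nearer to their YPD05 levels than VTC1 was. VTC4, which carries the catalytic site of the polymerase, had 63.5 to 322 CPM in fixed libraries and 355 and 382 CPM in YPD05, without overlap (log2 -1.32, SE 0.43, edgeR adjusted p = 0.386). VTC3 had 25.01 to 201 CPM, with unsorted replicate 2 again the highest, against 298 and 198 CPM in YPD05, and those ranges overlapped (log2 -1.68, SE 0.67, edgeR adjusted p = 0.523). VTC2 had 89.5 to 199.8 CPM against 198 and 238 CPM, with an overlap at its edge (log2 -0.72, SE 0.33, edgeR adjusted p = 0.605). These differences between subunits were not tested against each other. PHO81, the inhibitor through which low phosphate acts on the Pho80-Pho85 kinase, had 115 to 296 CPM in fixed libraries and 287 and 375 CPM in YPD05. PHM6, of unknown function, had 3.38 to 28.9 CPM against 76.5 and 60.6 CPM. Unsorted replicate 2 held the highest fixed value of VTC1, VTC2, VTC3, VTC4, PHO84, PHO5, SPL2 and PHO81. With that library left out the list median was -0.81 and 14 members lay below both YPD05 libraries without overlap, the same number as without YPD05 replicate 1. Over all tested genes the lower count rose in both settings too.

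**Figure D3:**
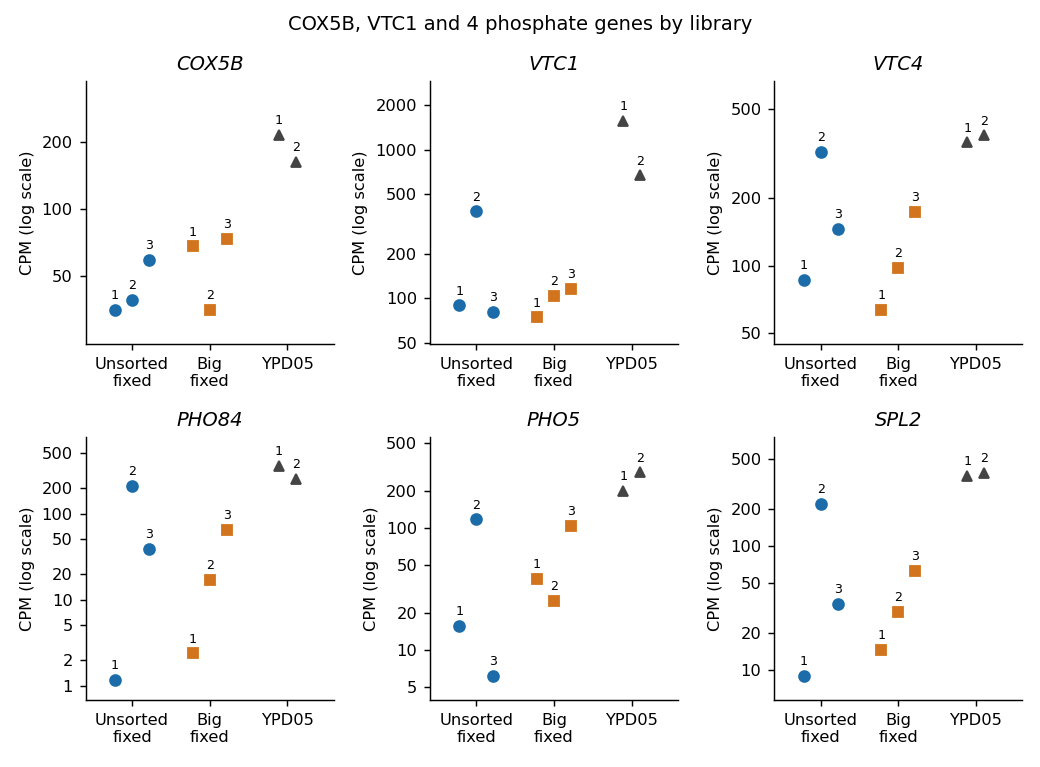
Levels of COX5B, VTC1 and 4 further phosphate genes in each library, in CPM on a log axis; symbols are single libraries and numbers are replicates. In these 6 genes every fixed library lies below both YPD05 libraries, and unsorted replicate 2 is the nearest to them in the 5 phosphate genes.

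In central carbon metabolism no gene passed the threshold. The citric acid cycle genes with separate groups were all lower in fixed microcolonies, 4 of 24 tested members, with a list median of -0.48, where 5.63% of all tested genes were lower without overlap. The count was 9 without big replicate 1 and 9 without YPD05 replicate 2, settings in which the count over all tested genes rose too. ACO1, the aconitase, had a lowest value of 0.265, a median of 7.54 and a highest value of 13.0 CPM in fixed libraries, against 130.02 and 30.3 CPM in YPD05 (log2 -3.42, SE 0.70, edgeR adjusted p = 0.205, DESeq2 adjusted p = 0.00492). Counting tags inside the ORF alone, which holds few of its tags, gave 0.39. IDH2, a subunit of the isocitrate dehydrogenase that follows it, had 3.97 to 35.1 CPM against 81.9 and 62.0 CPM (log2 -1.89, SE 0.54, edgeR adjusted p = 0.329). Its partner subunit IDH1 had 6.08 to 23.8 CPM in fixed libraries and 26.6 and 51.0 CPM in YPD05. KGD2, of the ketoglutarate dehydrogenase, had 3.18 to 12.2 CPM against 49.9 and 17.2 CPM. CIT1, the citrate synthase that opens the cycle, overlapped, with 6.83 to 35.8 CPM in fixed libraries and 65.9 and 22.7 CPM in YPD05. The 2 YPD05 libraries were up to several times apart in this list, and without YPD05 replicate 1 its median was -0.10.

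Glycolysis and fermentation genes were lower in fixed microcolonies without overlap at 10 of 24 tested members and higher at 0, against 5.63% and 5.54% of all tested genes, and the list median was -0.58. A log2 fold change above 0 was found for 5 members, the highest at 5.48, and below 0 for 19, against 53.5% and 46.5% of all tested genes. At an unadjusted p under 0.05 in edgeR's test 2 members were higher and 6 lower, against 232 and 212 of all 5449 tested genes. The genes named next are all from the lower side. TDH3, the main glyceraldehyde phosphate dehydrogenase, had a lowest value of 7019, a median of 12748 and a highest value of 17107 CPM in fixed libraries, against 20214 and 21450 CPM in YPD05 (log2 -0.72, SE 0.36, edgeR adjusted p = 0.620). ADH1, the alcohol dehydrogenase that makes ethanol, had 1218 to 1658 CPM against 2914 and 1951 CPM (log2 -0.72, SE 0.28, edgeR adjusted p = 0.502). PFK1, a phosphofructokinase subunit, had 64.5 to 151 CPM in fixed libraries and 157 and 159 CPM in YPD05. TDH1, an isoenzyme of TDH3 linked to slow growth, had 1.35 to 15.1 CPM in fixed libraries and 28.8 and 42.0 CPM in YPD05 (log2 -1.93, SE 0.55, edgeR adjusted p = 0.329). The TDH genes are near-identical copies and their tags can be split in alignment. HXK1, a hexokinase that glucose represses, had 6.09 to 38.3 CPM against 48.5 and 72.3 CPM.

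Genes for carbon sources other than glucose split the fixed libraries among themselves. PCK1, which opens gluconeogenesis, had 570 CPM in big replicate 1, 11.95 to 21.1 CPM in the other 5 fixed libraries, and 7.32 and 22.7 CPM in YPD05. MLS1, the malate synthase of the glyoxylate shunt, had 183 CPM in big replicate 1 and at most 2.38 CPM in the other 5, against 1.37 and 2.07 CPM in YPD05. JEN1, the lactate carrier, and POX1, the first enzyme of fatty acid breakdown, had 178 and 257 CPM in that library, and at most 9.69 and 15.6 CPM in the other 5. In YPD05, JEN1 had 6.41 and 2.76 CPM and POX1 had 1.83 and 0 CPM. The 25 tested genes of gluconeogenesis and alternative carbon use summed to 3177 CPM in big replicate 1, 238 to 391 CPM in the other 5 fixed libraries, and 295 and 322 CPM in YPD05. A log2 fold change above 0 was found for 23 of the 25, against 53.5% of all tested genes. Their list median of 1.43 was 0.35 without big replicate 1, and 0 of the 25 were separate between the groups. HSP26, a small heat shock protein, had 169 CPM in big replicate 1 and 5.37 to 11.95 CPM in the other 5, against 43.0 and 72.3 CPM in YPD05. Without that library its log2 fold change was -2.70 (SE 0.33, edgeR adjusted p = 0.00236), and with it -0.68 (SE 1.12, adjusted p = 0.908). GPH1, the glycogen phosphorylase, passed in the same way, at -2.10 (SE 0.32, edgeR adjusted p = 0.0160) without big replicate 1 and -1.62 (SE 0.45, adjusted p = 0.316) with it.

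**Figure D4:**
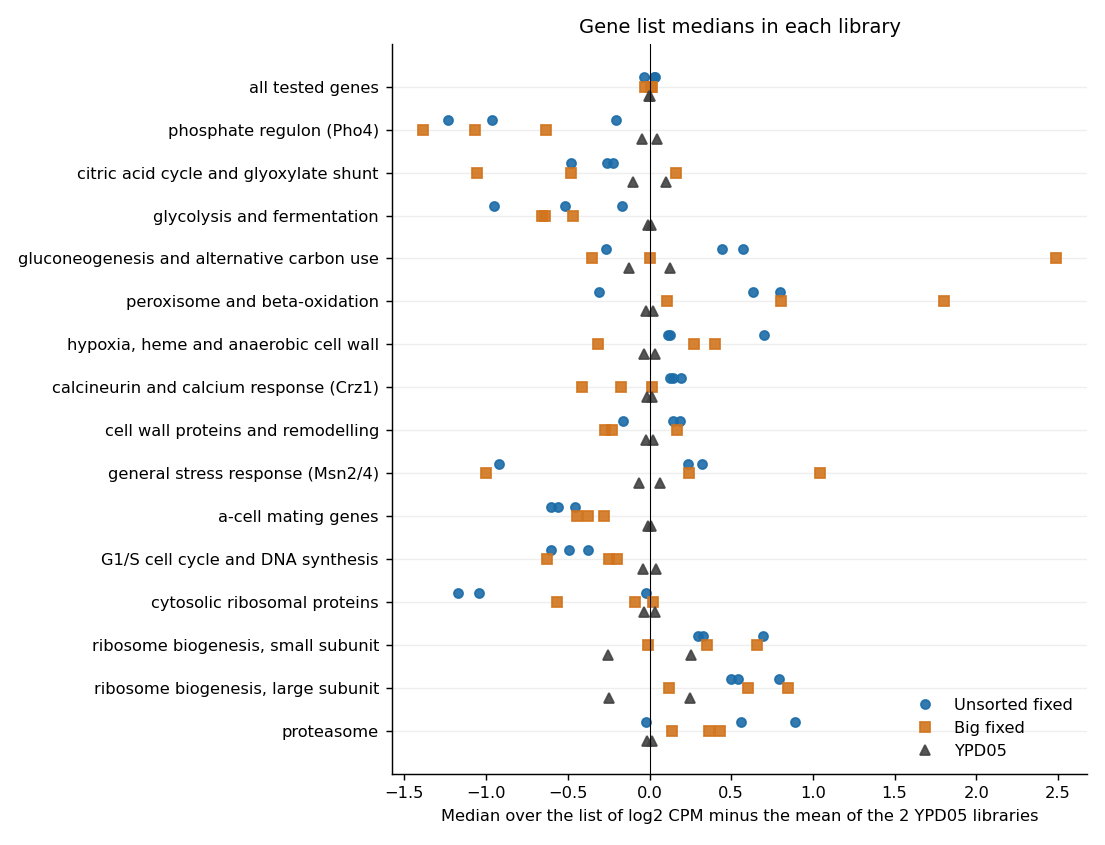
Median over each gene list of log2 CPM minus the mean of the 2 YPD05 libraries, with 1 symbol per library. The phosphate, glycolysis, a-cell mating and G1/S medians of the 6 fixed libraries lie below those of both YPD05 libraries. The gluconeogenesis median of big replicate 1 lies at 2.49, and the ribosomal protein medians of the fixed libraries spread between -1.17 and 0.02.

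Several genes of the calcium response and the cell wall stood above both YPD05 libraries in all 6 fixed libraries, although none passed edgeR's threshold. Calcineurin acts on the factor Crz1 when calcium enters the cytosol, and Slt2 is the last kinase of the pathway that watches the wall. CMK2, a calmodulin-dependent kinase and a target of Crz1, had a lowest value of 110.0, a median of 251 and a highest value of 589 CPM in fixed libraries, against 52.2 and 62.7 CPM in YPD05 (log2 2.36, SE 0.62, edgeR adjusted p = 0.316, DESeq2 adjusted p = 0.00598). RCN1, which regulates calcineurin, had 38.7 to 154 CPM against 26.1 and 28.2 CPM (log2 1.61, SE 0.58, edgeR adjusted p = 0.459). GSC2, the stress-induced glucan synthase subunit, had 25.7 to 172 CPM against 14.2 and 16.5 CPM (log2 2.67, SE 0.83, edgeR adjusted p = 0.376, DESeq2 adjusted p = 0.0201). In the list of calcium-response genes, 5 of 29 tested members were higher without overlap and 4 lower, against 5.54% and 5.63% of all tested genes. VTC1 was among the lower ones, and the median was 0.04. CMK2, RCN1 and GSC2 were picked from the higher side. Log2 fold changes in the list ran between -3.76, the lowest of all tested genes, and 2.67. The list as a whole thus had members on both sides.

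SLT2 itself varied little among the fixed libraries, with a lowest value of 117, a median of 161 and a highest value of 193 CPM, against 68.2 and 75.1 CPM in YPD05 (log2 1.15, SE 0.31, edgeR adjusted p = 0.316, DESeq2 adjusted p = 0.0279). YPS3, an aspartic protease anchored at the cell surface, had 50.7 to 86.5 CPM against 24.3 and 26.9 CPM (log2 1.303, SE 0.38, edgeR adjusted p = 0.329). RCR1, an endoplasmic reticulum protein that affects chitin in the wall, had 39.3 to 245 CPM against 19.7 and 24.8 CPM (log2 2.601, SE 0.63, edgeR adjusted p = 0.290, DESeq2 adjusted p = 0.00228). SLT2, YPS3 and RCR1 were picked from the higher side. Among the 41 tested genes of the wall list, 6 were higher without overlap and 2 lower, against 5.54% and 5.63% of all tested genes, with a median of 0.10. Of the 41, 22 had a log2 fold change above 0 and 19 below. Without YPD05 replicate 1 the higher count was 10. The lower count was 4 without unsorted replicate 2 or big replicate 1 and 5 without YPD05 replicate 2, where the median was -0.04. Over all tested genes the counts rose as well when any of these libraries was left out. The general stress list had 9 of 65 higher and 5 lower, against the same 5.54% and 5.63%, with a median of 0.35 that turned to -0.07 without big replicate 1. The lower count was 11 without that library and 10 without YPD05 replicate 2, against 525 and 895 lower over all tested genes in the same settings. DDR48, a stress-induced protein of that list, had 605 to 858 CPM in fixed libraries, against 364 and 377 CPM in YPD05 (log2 0.97, SE 0.28, edgeR adjusted p = 0.339).

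A further 4 genes were picked after their values were seen: DIA1, CUP2 and ICT1, which had the smallest p-values on the higher side, and IZH2. DIA1, a protein linked to invasive growth, had a lowest value of 78.0, a median of 212 and a highest value of 379 CPM in fixed libraries, against 27.9 and 26.2 CPM in YPD05 (log2 2.98, SE 0.57, edgeR adjusted p = 0.136, DESeq2 adjusted p = 1.43e-05). Without big replicate 1, its lowest fixed library, DIA1 passed edgeR's threshold, at 3.15 (SE 0.49, adjusted p = 0.0160). ICT1, a lysophosphatidic acid acyltransferase, had 34.1 to 69.4 CPM against 7.32 and 13.1 CPM (log2 2.34, SE 0.52, edgeR adjusted p = 0.213, DESeq2 adjusted p = 0.00228). CUP2, the copper-sensing transcription factor, had 84.8 to 119 CPM in fixed libraries and 23.8 and 40.6 CPM in YPD05 (log2 1.599, SE 0.35, edgeR adjusted p = 0.213). IZH2, a membrane protein tied to zinc homeostasis, had 337 to 897 CPM in 5 fixed libraries and 108 CPM in big replicate 1, against 83.3 and 141 CPM in YPD05. It passed without big replicate 1, at 2.38 (SE 0.43, edgeR adjusted p = 0.0407).

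**Figure D5:**
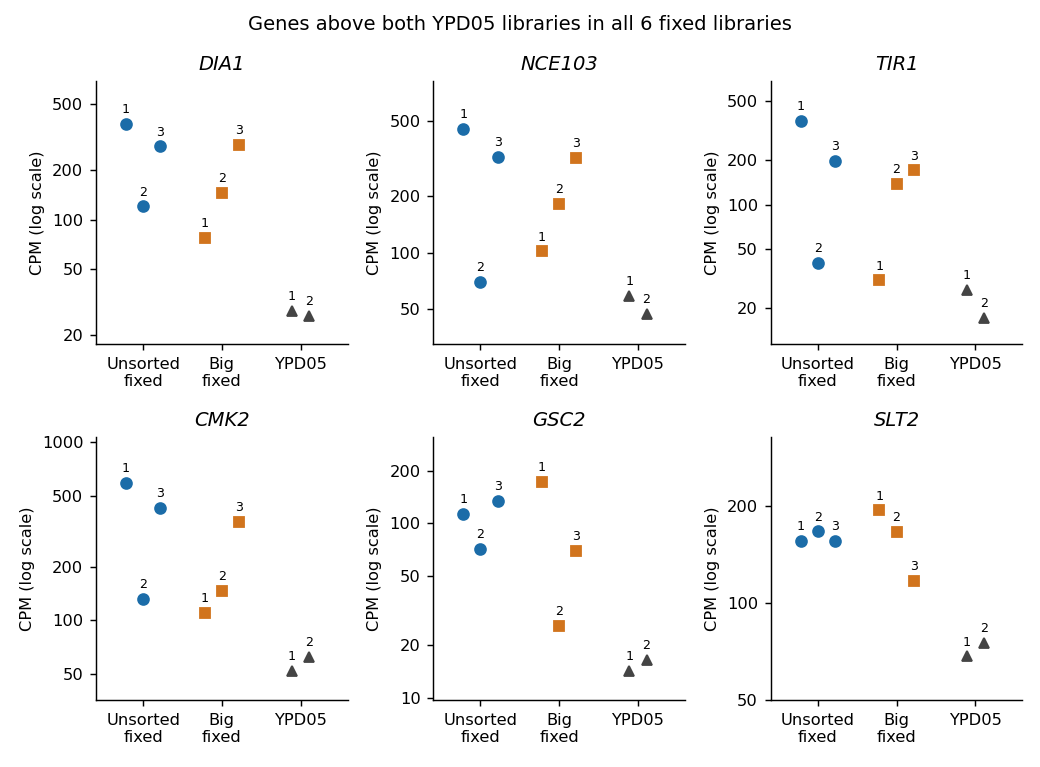
Levels of 6 genes that lay above both YPD05 libraries in all 6 fixed libraries, in CPM on a log axis; symbols are single libraries and numbers are replicates. None passed edgeR's threshold and DESeq2 called all 6; unsorted replicate 2 or big replicate 1 is the lowest fixed library in DIA1, NCE103, TIR1 and CMK2.

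No mating gene passed the threshold. The a-cell mating list had a median of -0.56, with 7 of 27 tested members lower without overlap and 1 higher, against 5.63% and 5.54% of all tested genes. Without YPD05 replicate 2 these were 11 and 3, and the counts over all tested genes rose as well. AGA1, the anchor of the a-cell agglutinin, had a lowest value of 46.6, a median of 68.2 and a highest value of 135 CPM in fixed libraries, against 261 and 380.3 CPM in YPD05 (log2 -1.92, SE 0.42, edgeR adjusted p = 0.213, DESeq2 adjusted p = 0.0188). AGA2, the agglutinin subunit that binds the partner, had 19.7 to 89.3 CPM against 163 and 123 CPM (log2 -1.74, SE 0.46, edgeR adjusted p = 0.316). FAR1, which stops the cell cycle on pheromone, had 64.6 to 156 CPM against 266 and 268 CPM (log2 -1.34, SE 0.30, edgeR adjusted p = 0.228, DESeq2 adjusted p = 0.0279). STE2, the pheromone receptor, overlapped, with 153 to 354 CPM in fixed libraries and 493 and 282 CPM in YPD05.

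G1/S genes, which peak as cells begin DNA synthesis, had a list median of -0.34, with 6 of 43 tested members lower without overlap and 1 higher, against 5.63% and 5.54% of all tested genes. The lower count was 10 of 42 without big replicate 1 and 17 of 43 without YPD05 replicate 2, where 5 were higher. Counts over all tested genes rose in both settings too. CDC21, the thymidylate synthase, had a lowest value of 11.8, a median of 20.1 and a highest value of 43.9 CPM in fixed libraries, against 111 and 81.3 CPM in YPD05 (log2 -2.03, SE 0.43, edgeR adjusted p = 0.213, DESeq2 adjusted p = 0.0159). It passed edgeR's threshold without big replicate 1, its highest fixed library, at -2.30 (SE 0.40, adjusted p = 0.0313). POL2, the catalytic subunit of DNA polymerase epsilon, had 175 to 594 CPM against 608 and 857 CPM (log2 -1.03, SE 0.36, edgeR adjusted p = 0.458).

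Among growth genes, the medians of ribosome assembly and ribosomal protein genes stood on opposite sides of 0, with no gene called in either. Assembly factors of the large subunit had a median of 0.59, with 11 of 71 tested members higher without overlap and 0 lower, and those of the small subunit 0.40, with 6 of 58 higher and 0 lower, against 5.54% and 5.63% of all tested genes. Without big replicate 1 the higher counts were 35 and 17, and without YPD05 replicate 2 they were 48 and 33. Counts over all tested genes rose in both settings too. Without big replicate 3 the small-subunit count was 10. RRS1, needed for large-subunit assembly, had a lowest value of 300.1, a median of 390.1 and a highest value of 674 CPM in fixed libraries, against 179.9 and 199.8 CPM in YPD05 (log2 1.19, SE 0.38, edgeR adjusted p = 0.386). NOB1, the nuclease that finishes the small-subunit RNA, had 17.7 to 32.1 CPM against 10.99 and 10.3 CPM (log2 1.36, SE 0.53, edgeR adjusted p = 0.505). The YPD05 libraries themselves lay 0.25 below and above their mean in the large-subunit median, and without YPD05 replicate 1 the median was 0.34.

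Cytosolic ribosomal protein genes had a median of -0.38, with 134 of 138 tested members below 0, and 11 lower without overlap and 0 higher. That share of the list lay near the 5.63% of all tested genes. The lower count was 27 without unsorted replicate 2, 18 without big replicate 1, 23 without big replicate 2, 19 without YPD05 replicate 1 and 40 without YPD05 replicate 2. Over all tested genes the lower count rose in each of these settings too. Their library medians against the YPD05 mean were -1.04, -0.02 and -1.17 in unsorted replicates 1 to 3 and -0.09, 0.02 and -0.56 in big replicates 1 to 3. Unsorted replicates 1 and 3 and big replicate 3 thus lay lowest, and the other 3 fixed libraries lay within 0.1 of the YPD05 mean. RPS9A, a small-subunit protein with a near-identical copy in RPS9B, had 122 to 343 CPM against 489 and 593 CPM (log2 -1.38, SE 0.44, edgeR adjusted p = 0.376). EFB1, a translation elongation factor, turned on 1 control library, with 1046 to 2569 CPM in fixed libraries and 11474 and 1560 CPM in YPD05. Its log2 fold change of -2.02 was 0.04 without YPD05 replicate 1 and 0.36 when tags were counted up to 200 nt after the ORF. Proteasome genes had a median of 0.45, with 6 of 40 tested members higher without overlap and 0 lower, against 5.54% and 5.63% of all tested genes. The higher count was 15 without unsorted replicate 2 and 16 without YPD05 replicate 2, settings in which the count over all tested genes rose too. RPT3, an ATPase of the regulatory particle, had 131 to 298 CPM against 97.5 and 111 CPM (log2 1.05, SE 0.37, edgeR adjusted p = 0.458).

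Common reference genes did not pass the threshold either. ACT1, the actin gene, had 4891 to 10225 CPM in fixed libraries and 9325 and 6944 CPM in YPD05, with overlap (log2 -0.17, SE 0.35, edgeR adjusted p = 0.925). TAF10, a subunit of general transcription factor complexes, had 181 to 273 CPM against 179 and 167 CPM (log2 0.47, SE 0.32, edgeR adjusted p = 0.726). PDA1, of the pyruvate dehydrogenase, had 327 to 523 CPM against 703 and 582 CPM (log2 -0.59, SE 0.27, edgeR adjusted p = 0.605). HIS3, disrupted in this strain, kept tags, at 98.1 to 501 CPM in fixed libraries and 293 and 380.3 CPM in YPD05, and tags outside a disrupted stretch check nothing.

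Taken by the way they were prepared, neither kind of fixed library gave a call against YPD05. Unsorted fixed particles had 0 of 5449 genes past the edgeR threshold, with 432 at an unadjusted p under 0.05, and 37 by DESeq2. Big colonies had 0 of 5449, with 374 at an unadjusted p under 0.05, and 13 by DESeq2. Without unsorted replicate 2 the unsorted particles gave 30 calls, 15 higher and 15 lower. Leaving out unsorted replicate 1 or 3 instead gave 0. The 30 calls included VTC1 (-3.71), PHO5 (-4.46) and SPL2 (-4.18) on the lower side and DIA1 (3.59), CMK2 (3.14) and RCN1 (2.48) on the higher side. They followed from dropping the unsorted library nearest to YPD05 on the first principal component, so they are a description. Big colonies against unsorted particles gave 0 calls of 5449 by edgeR, with 190 at an unadjusted p under 0.05, and 0 by DESeq2, and the smallest edgeR adjusted p was 0.9999. COX5B averaged 59.1 CPM in big colonies and 44.6 CPM in unsorted particles.

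Transcript end positions were compared at 2095 genes that had 50 tags or more in all 12 libraries, as the mean distance of the tags from the end of the ORF. The median gene ended 87.6 nt after its ORF in fixed microcolonies and 88.7 nt in YPD05. No gene was called by limma (0 of 2095), with 40 at an unadjusted p under 0.05 and a smallest adjusted p of 0.489, for PDP3, a subunit of the NuA3 histone acetyltransferase. PDP3 was named after its values were seen, and it ended at 375 ± 3.40 nt (SD, n = 6) in fixed microcolonies and 339 ± 15.4 nt (SD, n = 2) in YPD05. The median shift was -0.01 nt, 1358 genes shifted by no more than 10 nt, and for 682 genes the 95% interval lay within 20 nt of 0. Without overlap, 84 genes ended further from the ORF in fixed microcolonies (4.01%) and 70 nearer (3.34%).

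Antisense tags, on the strand opposite to the gene within its ORF, took 1.00 ± 0.216% of sense and antisense tags in fixed microcolonies (SD, n = 6) and 0.780 ± 0.113% in YPD05 (SD, n = 2). The fixed libraries ran between 0.684% and 1.33%, around the 0.700% and 0.860% of YPD05, and the difference of 0.223 points had p = 0.214 in an exact two-sided permutation test over 28 splits. Tags ending inside the ORF took 17.8 ± 5.79% of gene tags in fixed microcolonies (SD, n = 6) and 14.4 ± 5.05% in YPD05 (SD, n = 2). Unsorted replicate 2, at 26.5%, was the highest and big replicate 2, at 12.4%, the lowest of the fixed libraries, against 10.8% and 18.0% in YPD05. The exact two-sided permutation p was 0.464, where the smallest p that 6 against 2 libraries allow is 0.0357.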

How the data were processed

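The authors deposited 1 table of counts, not normalized, that gives for 542908 stranded positions the number of 3′ end tags per library; per the submitters' processing notes CASAVA 1.8.2, GSNAP and the builds R64 and sacCer3 were used, and filters are not given in the sources used here. RNA input was 500 to 3000 ng, per the labels' protocols. The table's strand was turned, since at 700 isolated genes 94.2% to 95.7% of tags in the 8 libraries lay opposite to it. Tags were summed for 6002 protein-coding genes (RefSeq, R64) in the ORF or up to 400 nt after it, before the next gene on that strand, and took 94.4% to 96.3% of tags.

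Counts were tested with edgeR 4.0.16 (robust quasi-likelihood, TMM, filterByExpr); the fit held 4 groups, 12 libraries and 8 residual degrees of freedom; unsorted and big libraries were separate groups for the tests of each. Standard errors were derived from each log2 fold change and its F statistic. Mean 3′ end positions were tested with limma 3.58.1, weighted by tags up to 200; shares with exact permutation. DESeq2 1.42.0, limma-voom and other scalings, filters, windows and libraries were alternatives. The calculations were tested on simulated data. Python 3.11.15 (numpy 2.4.6, pandas 2.3.3, matplotlib 3.10.9) and R 4.3.3 were used.

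Per the series text, libraries within a group are biological replicates; it does not say which cultures were shared; p-values measure the spread between these libraries. Libraries of a group differed by more than counting error (chi-square per degree of freedom 26.3 to 105), so none were merged. Members, gene lists and tests were chosen with earlier results of these data known. By rule the text names up to 12 genes per direction past the threshold without overlap and with at least 5 CPM in the higher group, up to 4 called members per list, any member of a described list of up to 25 genes, reference genes and strain markers. The other genes named, from longer lists or from none, were chosen after their values were seen. Names in the lists were matched by symbol or synonym, so VTC1 counts under both phosphate and calcium. The lists described are a selection, made with their values known; the other lists are not reported here.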

Additional observations from a re-analysis of the deposited data

Results flagged for a closer look

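In 14 of 117 checks of named genes, gene lists and tag shares over the 6 fixed libraries, 1 library lay far from the other 5 by the gap of the extreme library relative to the range (Dixon's 95% criterion). Chance alone marks about 1 group in 20 when items are independent and not chosen by their values. Many genes here were named after their values were seen, so the 14 flags are a description and were not set against that rate. Big replicate 1 accounted for 8 of the 14 and unsorted replicate 2 for 4.

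Big replicate 1 stood out in several genes for carbon sources other than glucose. PCK1 was at 570 CPM there and at most 21.1 CPM in the other 5, MLS1 at 183 CPM against at most 2.38, JEN1 at 178 CPM against at most 9.69, and POX1 at 257 CPM against at most 15.6. The median of the gluconeogenesis list was 2.49 above the YPD05 mean in log2, where the other 5 lay between -0.35 and 0.57. HSP26 was at 169 CPM against at most 11.95 and GPH1 at 36.5 CPM against at most 14.8. The sterol synthesis median was -0.14 in this library and 0.26 to 0.36 in the other 5.

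Unsorted replicate 2 stood out in phosphate genes. VTC1 was at 384 CPM there and at most 116 CPM in the other 5, PHO84 at 207 CPM against at most 64.1, and SPL2 at 219 CPM against at most 62.8. PFK1 was at 151 CPM, with 64.5 to 92.2 CPM in the other 5. Outside these libraries, DAN1 was at 22.5 CPM in unsorted replicate 1 and at most 7.14 CPM elsewhere, and NOB1 at 17.7 CPM in unsorted replicate 3 and at least 27.7 CPM elsewhere.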

How the results depend on the processing

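The 2 calls of fixed microcolonies against YPD05 depended on the test and on the libraries fitted. The count stayed at 2 without a filter, with at least 5 CPM in 2 libraries, with a window of 200 nt and with 5 groups. It was 36 with DESeq2, 1 with limma-voom, 0 with RLE factors, 1 with total gene tags alone, 0 inside ORFs, 0 with 8 libraries, 0 with 14 and 196 with voom quality weights (60 higher, 136 lower), 29 of which DESeq2 called too. Of 3 settings chosen after seeing the data, leaving out the unfixed libraries gave 0; the others gave 45 with DESeq2 on 8 libraries and 0 with limma-voom on 8. Leaving out 1 library gave 0 to 8 calls, with 8 without big replicate 1, 3 without YPD05 replicate 2 and 0 without unsorted replicate 1 or 3, big replicate 2 or 3, or YPD05 replicate 1. With total tags the median log2 fold change of all genes was 0.11 against 0.05.

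Whether replicate numbers pair the libraries could not be decided. Same-number correlations of unsorted and big deviations were -0.16, 0.03 and 0.20, and those of different numbers ran between -0.25 and 0.16. Deviations from the mean of 3 libraries are tied to each other, so these few values cannot exclude a pairing. With the replicate block the count was 0 for the pooled comparison. Unsorted particles against YPD05 had 37 calls with DESeq2 and 0 to 30 with 1 library left out; big colonies had 13 with DESeq2, 1 with limma-voom, 1 with total gene tags and 0 to 3 with 1 library left out. Big against unsorted stayed at 0 in the alternatives run. Position calls stayed at 0, apart from 5 without YPD05 replicate 1, a range of 0 to 5. The antisense difference stayed positive, at 0.158 to 0.303 points with a fixed library or YPD05 replicate 2 left out and 0.143 without YPD05 replicate 1. It was 0.133 in ORFs with no gene within 500 nt on the other strand and 0.0132 as a median of per-gene shares. The ORF share difference was -0.0818 points as a median of per-gene shares, -0.144 without YPD05 replicate 1 and up to 6.99 with another library left out.

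Some named genes turned direction, none of them called by edgeR with all 12 libraries. Inside ORFs alone the log2 fold change was 1.45 for SPL2, 0.39 for ACO1, 4.95 for HXK1, -1.74 for ICT1, 0.061 for ACT1, -0.15 for TAF10 and 4.53 for GPP2. With 1 library left out ACT1 ran between -0.38 and 0.059 and EFB1 between -2.85 and 0.042, with the upper values without YPD05 replicate 1, and EFB1 was at 0.36 with a window of 200 nt. The cause was not tested. With 2 YPD05 libraries, 1 of them sets much of each estimate.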
